A study of Mus musculus with 7 samples.

Results

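The genes that make fatty acids de novo and introduce double bonds into them were followed in mammary glands of mice at lactation day 1 (L1). The set of 31 genes was named by role in the pathway, not by a cut on measured values, but with earlier results of these data known. Shares of the set given beside those of all genes are therefore descriptions and not a test of the set. It covers the supply of acetyl-CoA and NADPH (6 genes), the building of the chain in the cytosol (5) and mitochondrial fatty acid synthesis (3). Elongation (9), desaturation (5) and activation to acyl-CoA (3) complete it. All 31 were found among the 37310 genes of the count table, and 30 of them were among the 17175 genes that passed the filter on low counts. The one that did not pass was the elongase gene *Elovl2*, with a level of at most 0.212 CPM, the scaled count explained below, in any library.

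RNA sequencing was done on whole glands of 3 WT and 4 *Tardbp* KO mice, all C57BL/6 females, to ask how gene expression in the lactating gland depends on TDP-43, the RNA-binding protein that *Tardbp* encodes. The WT mice had the genotype *Tardbp* wt/wt with WAP-Cre and the KO mice *Tardbp* flox/flox with WAP-Cre, so both groups carried the Cre transgene. The *Wap* promoter is active in luminal epithelial cells from the middle of pregnancy into lactation, and Cre then removes exons 2 and 3 of *Tardbp*. The other cells of the gland keep the gene, and so does any luminal cell in which Cre did not act.

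In the lactating gland, secretory epithelial cells make much of the fatty acid of milk fat from glucose. Citrate leaves the mitochondrion and is split into acetyl-CoA, acetyl-CoA is carboxylated to malonyl-CoA, and fatty acid synthase joins the units into a chain. In mammary epithelium a separate thioesterase releases the chain early, which gives milk its medium-chain fatty acids, and longer chains are lengthened and desaturated in the endoplasmic reticulum. Adipocytes of the fat pad use the same cytosolic enzymes, and RNA from whole tissue holds both cell types.

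Library totals lay between 36007737 and 42811337 counts. Levels are given as CPM, a gene's counts scaled to a common library size, after TMM scaling, a scaling that assumes that most genes do not differ between libraries. *Tardbp* itself had 223, 178 and 159 CPM in the WT libraries and 214, 176, 154 and 208 CPM in the KO-labelled libraries, a log2 fold change of 0.01 (SE 0.18, adjusted p = 0.982 by the edgeR quasi-likelihood test), and counts over the whole gene do not separate the deleted exons from the others. The genotypes are therefore written as the labels give them. By immunofluorescence, the study reports effective loss of TDP-43 in such mice in late pregnancy and later in lactation. Sequencing lanes were spread unevenly: only lane 4 held both genotypes, with WT replicate 2 and KO replicates 3 and 4, so for the other libraries lane and genotype cannot be told apart. Milk protein genes took 26.3% to 34.0% of all counts in WT and 12.7% to 21.8% in KO-labelled libraries.

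WT replicate 2 stood apart from the other WT libraries. It had the lowest WT level in 24 of the 30 genes tested, and WT replicate 1 had the highest in 24. The main counts and the median of the set below, and the genes that depended most on these libraries, are given with and without them. Values for the marker lists and for the partner genes listed last are given without leaving out single WT libraries. No source says that a shared replicate number marks a shared litter or day, and p-values measure the spread between these single-mouse libraries.

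Of the 30 genes, 25 had a lower and 5 a higher fitted level in the KO-labelled libraries, with a median log2 fold change of −0.96 (range −3.20 to 0.64) where the median of all genes tested was 0.05. The shortfall was largest in chain building, with a median of −1.89 over 5 genes, and in acetyl-CoA and NADPH supply, with −1.28 over 6 genes. It was −1.0 over the 5 desaturases, −0.58 over the 8 elongation genes tested, −0.28 over the 3 activation genes and −0.03 over the 3 mitochondrial genes. With any single library left out, the median of chain building lay between −2.18 and −1.62 and that of supply between −1.58 and −0.88. That of desaturation lay between −1.28 and −0.62, and that of elongation between −0.74 and −0.44. In 13 of the 30 (43.3%), every KO-labelled library lay below every WT library, and none had every KO-labelled library above. Over all genes tested, 9.62% lay entirely below and 9.07% entirely above.

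By the edgeR quasi-likelihood test no gene of the set was called, which took an adjusted p under 0.01 together with a log2 fold change above 1 in size, and neither was any other gene (0% of 17175). The adjusted p values of the set ran from 0.0578 to 0.985. At an unadjusted p under 0.05, 18 of the 30 (60.0%) were lower, where 10.7% of all genes tested were, and 1 was higher (*Fads3*), where 10.7% of all genes were. Under these limits the exact test of edgeR called 11 of the 30 (36.7%), all lower, where it called 1.44% of all genes lower and 1.04% higher. DESeq2 called the same 11, where it called 1.81% of 15504 genes lower.

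These 11 were *Acly*, *Acss1*, *Acss2* and *Aacs* in acetyl-CoA supply, *Acaca*, *Acacb*, *Olah* and *Thrsp* in chain building, *Elovl1* in elongation, and *Scd2* and *Fads1* in desaturation. Without WT replicate 2 the exact test called 16 (2.51% of all genes called lower) and without WT replicate 1 it called 6 (0.536%). The median log2 fold change was −1.26 without WT replicate 2 and −0.57 without WT replicate 1. Without WT replicate 2, the number of genes with every KO-labelled library below every WT library went from 13 to 22, where 17.6% of all genes lay entirely below. Within lane 4, with 1 WT and 2 KO-labelled libraries and no test, the median was −0.31.

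**Figure D1:**
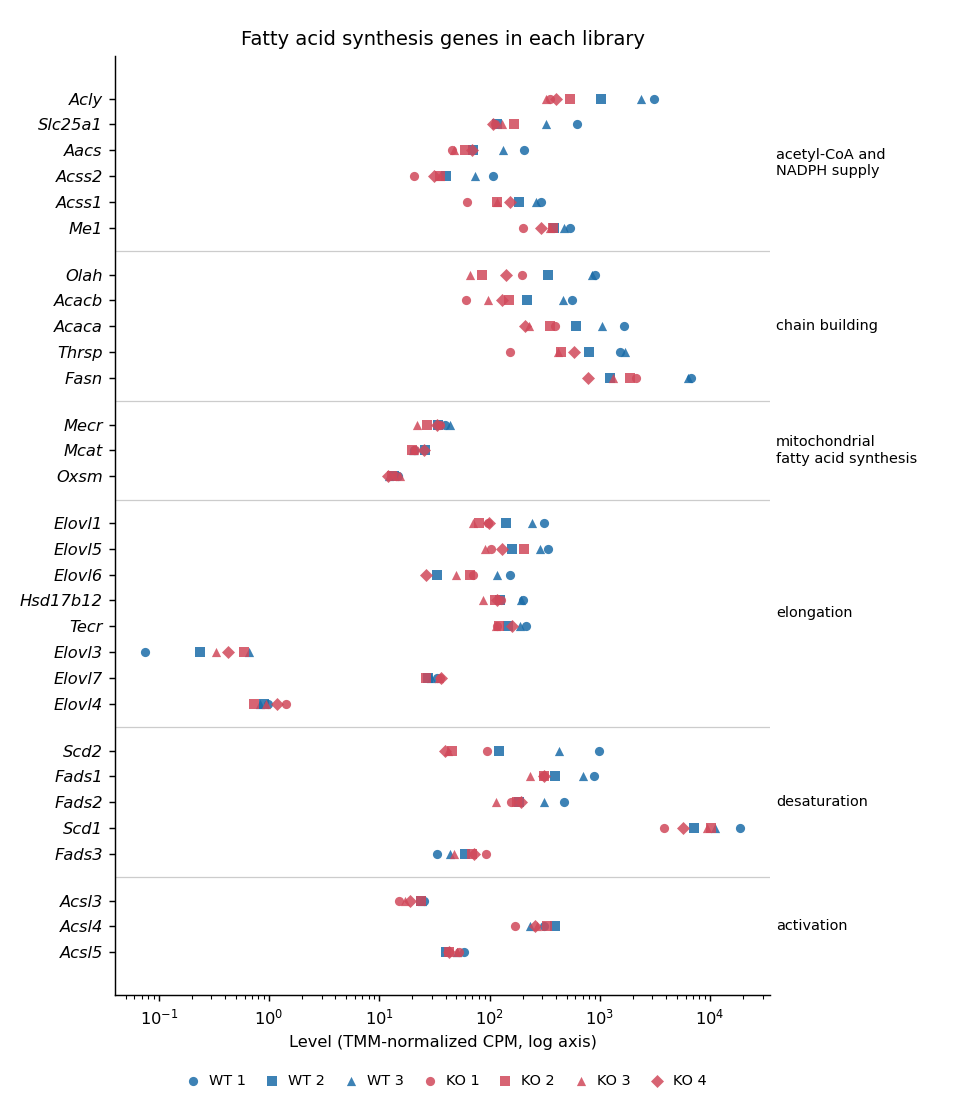
Level of each of the 30 genes tested, in TMM-normalized CPM on a log axis, with 1 point for each library (blue, WT replicates 1 to 3; red, KO replicates 1 to 4), by step of the pathway. In *Acly*, *Olah* and *Acaca* all red points lie left of all blue points, while the points of *Mcat* and *Oxsm* lie on top of each other, and WT replicate 2 is often the blue point nearest to the red ones. *Elovl3* had no count in KO replicate 1, which a log axis cannot show.

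The first step provides carbon and reducing power. *Acly* (ENSMUSG00000020917.10, NCBIM37, chromosome 11, 100337667 to 100389314, minus strand) encodes ATP citrate lyase, which splits cytosolic citrate into acetyl-CoA and oxaloacetate. It had 3103, 1019 and 2381 CPM in the WT libraries and 356, 541, 323 and 403 CPM in the KO-labelled ones. The lowest WT library still had more than the highest KO-labelled library, and the KO-labelled libraries were close together. The means were 2167 ± 1058 CPM (SD, n = 3) and 406 ± 96.1 CPM (SD, n = 4), a log2 fold change of −2.42 (SE 0.37, adjusted p = 0.0578 by the quasi-likelihood test and 1.08e-07 by the exact test of edgeR), or 5.34 times more in WT. The 2-sided exact permutation test, with 35 possible assignments of the labels, gave p = 0.0286, the smallest this design allows. The log2 fold change was −2.75 without WT replicate 2, −2.07 without WT replicate 1 and −1.50 within lane 4.

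*Slc25a1*, the carrier that brings citrate out of the mitochondrion, had 622, 117 and 327 CPM in WT and 112, 168, 130 and 108 CPM in the KO-labelled libraries. Its groups overlapped, because WT replicate 2 lay within the KO-labelled range. The log2 fold change was −1.46 (SE 0.45, adjusted p = 0.128 by edgeR), and it was −1.88 without WT replicate 2, −0.78 without WT replicate 1 and 0.02 within lane 4, so the size of the difference depended on which WT libraries were used.

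Acetyl-CoA is also made from free acetate. *Acss2*, the acetyl-CoA synthetase of cytosol and nucleus, had 107, 40.5 and 73.6 CPM in WT and 20.5, 35.8, 35.2 and 31.5 CPM in the KO-labelled libraries, a log2 fold change of −1.26 (SE 0.31, adjusted p = 0.0878 by edgeR). The groups did not overlap, though WT replicate 2 was within 5 CPM of the highest KO-labelled library. Its mitochondrial relative *Acss1* had 184 to 291 CPM in WT and 62.6 to 155 CPM in the KO-labelled libraries (log2 fold change −1.13). *Aacs*, which activates the ketone body acetoacetate for lipid synthesis, had 71.4 to 206 CPM and 45.6 to 70.0 CPM (log2 fold change −1.30). *Me1*, the cytosolic malic enzyme and a source of NADPH, differed least of the 6, with 384 to 536 CPM in WT and 200 to 374 CPM in the KO-labelled libraries (log2 fold change −0.61). All 6 genes of this step were lower at an unadjusted p under 0.05, and 5 of them, all but *Slc25a1*, had groups that did not overlap.

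**Figure D2:**
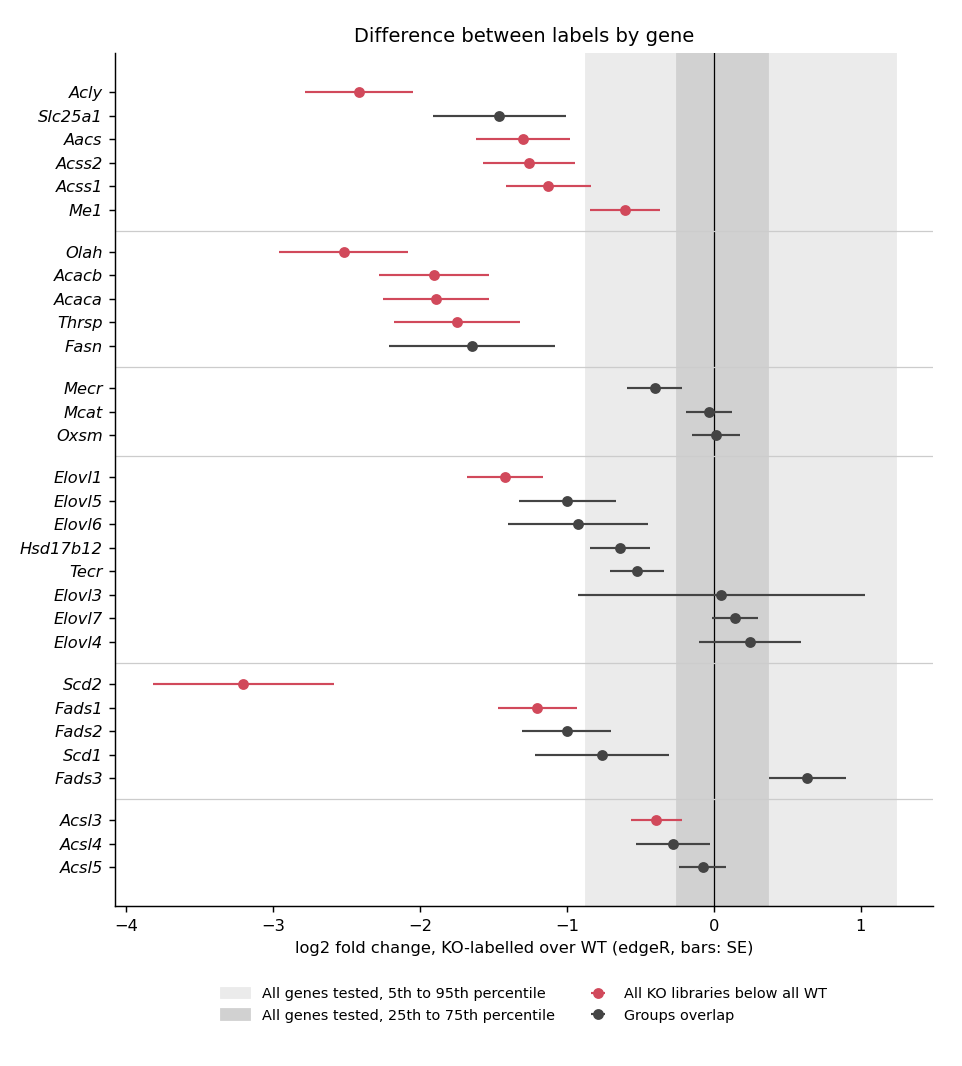
log2 fold change of the KO-labelled over the WT libraries for each gene tested (points), with its SE (bars), from edgeR. Grey bands show the ranges that hold 50% and 90% of all 17175 genes tested. Red marks the 13 genes with every KO-labelled library below every WT library. Chain building lies wholly left of the wider band. Of the mitochondrial genes, *Mcat* and *Oxsm* lie close to 0 and *Mecr* is at −0.40.

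Chain building had the lowest median log2 fold change of the 6 steps. *Acaca* and *Acacb* encode the acetyl-CoA carboxylases that make malonyl-CoA, of which the first serves synthesis in the cytosol and the second sits at the mitochondrial surface and restrains fatty acid oxidation. *Acaca* had 1643, 604 and 1037 CPM in WT and 393, 351, 230 and 208 CPM in the KO-labelled libraries, a log2 fold change of −1.89 (SE 0.36, adjusted p = 0.0692 by edgeR). *Acacb* had 560, 217 and 459 CPM in WT and 60.7, 151, 97.5 and 131 CPM in the KO-labelled libraries, a log2 fold change of −1.91 (SE 0.37, adjusted p = 0.0712 by edgeR). Neither gene's groups overlapped, and both differed to about the same extent.

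*Fasn*, whose product carries out all reactions of chain growth, had 6773, 1230 and 6367 CPM in WT and 2140, 1880, 1318 and 780 CPM in the KO-labelled libraries. WT replicate 2 lay inside the KO-labelled range, and the other WT libraries had about 3 times the highest KO-labelled level. The log2 fold change was −1.65 (SE 0.56, adjusted p = 0.147 by edgeR). It was −2.10 without WT replicate 2, −1.31 without WT replicate 1 and −0.28 within lane 4. The means, 4790 ± 3090 CPM (SD, n = 3) and 1529 ± 606 CPM (SD, n = 4), were thus separated by about the SD of the WT group.

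*Olah* (ENSMUSG00000026645.5, NCBIM37, chromosome 2, 3259254 to 3283863, minus strand) encodes thioesterase II, the enzyme that releases medium-length chains from fatty acid synthase in mammary epithelium. It had 902, 341 and 856 CPM in WT and 196, 85.6, 66.0 and 140 CPM in the KO-labelled libraries. No KO-labelled library reached the lowest WT library. The log2 fold change was −2.52 (SE 0.44, adjusted p = 0.0678 by the quasi-likelihood test and 8.03e-06 by the exact test of edgeR), or 5.74 times more in WT. *Thrsp*, known as Spot 14, a nuclear protein tied to the transcription of lipogenic genes and to medium-chain synthesis in the gland, had 1534, 801 and 1693 CPM in WT and 152, 447, 419 and 579 CPM in the KO-labelled libraries, a log2 fold change of −1.75 (SE 0.43, adjusted p = 0.0868 by edgeR). With any single library left out, the log2 fold change lay between −2.85 and −2.30 for *Olah*, −2.18 and −1.47 for *Acaca*, −2.21 and −1.62 for *Acacb* and −2.01 and −1.48 for *Thrsp*. All 5 genes of the step had an unadjusted p under 0.05 and 4 had groups that did not overlap, all but *Fasn*.

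The promoters of 4 of these genes are shown because the genes were lower together, and that of *Mecr*, a gene of the mitochondrial route described next, beside them. Each run holds 250 bases before and 50 from the transcription start in RefSeq (table of build GRCm38.p6), and its place on NCBIM37 comes from an exact match. Capitals mark CCAAT, the box bound by NF-Y, and GGGCGG, the box bound by Sp1, on either strand (ATTGG and CCGCCC on the other); in *Fasn* the run CCAATTGG holds the CCAAT box on both strands, overlapping.
Acly, chr11:100389265-100389564, minus strand: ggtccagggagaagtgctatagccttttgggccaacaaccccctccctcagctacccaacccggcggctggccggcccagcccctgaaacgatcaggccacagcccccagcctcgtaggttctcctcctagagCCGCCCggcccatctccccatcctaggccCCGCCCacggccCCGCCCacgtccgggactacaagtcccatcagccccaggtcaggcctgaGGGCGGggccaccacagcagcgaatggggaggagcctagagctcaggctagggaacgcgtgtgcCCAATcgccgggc
Fasn, chr11:120685812-120686111, minus strand: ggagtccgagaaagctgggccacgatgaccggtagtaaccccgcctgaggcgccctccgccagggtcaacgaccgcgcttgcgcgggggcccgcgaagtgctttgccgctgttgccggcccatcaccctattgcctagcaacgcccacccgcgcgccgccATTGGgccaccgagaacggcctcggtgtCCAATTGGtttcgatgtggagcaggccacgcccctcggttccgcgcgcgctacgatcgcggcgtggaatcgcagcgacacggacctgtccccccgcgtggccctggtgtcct
Olah, chr2:3283792-3284091, minus strand: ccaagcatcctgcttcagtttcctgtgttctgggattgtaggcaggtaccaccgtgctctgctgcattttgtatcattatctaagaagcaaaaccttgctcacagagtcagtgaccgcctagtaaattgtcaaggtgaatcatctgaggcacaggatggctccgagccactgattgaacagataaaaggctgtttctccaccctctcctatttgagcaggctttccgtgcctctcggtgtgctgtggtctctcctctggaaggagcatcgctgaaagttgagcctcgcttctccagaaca
Thrsp, chr7:104566011-104566310, minus strand: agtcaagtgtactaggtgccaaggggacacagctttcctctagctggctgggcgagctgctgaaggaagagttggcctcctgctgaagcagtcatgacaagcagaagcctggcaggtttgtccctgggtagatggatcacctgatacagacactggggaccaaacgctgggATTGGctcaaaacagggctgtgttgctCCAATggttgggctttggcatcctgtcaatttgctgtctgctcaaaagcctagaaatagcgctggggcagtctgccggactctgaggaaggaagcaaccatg
Mecr, chr4:131399136-131399435, plus strand: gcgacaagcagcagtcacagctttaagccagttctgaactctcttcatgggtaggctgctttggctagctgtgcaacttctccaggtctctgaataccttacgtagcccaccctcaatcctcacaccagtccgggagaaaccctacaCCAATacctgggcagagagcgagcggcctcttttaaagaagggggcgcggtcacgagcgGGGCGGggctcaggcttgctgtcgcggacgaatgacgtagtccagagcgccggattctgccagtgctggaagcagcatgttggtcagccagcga
The RefSeq start coincides with the start of the counted gene for *Acly* and lies within 22 bases of it for *Olah* and *Mecr*. For *Fasn* the counted gene starts 369 bases further downstream, so no base of the window is in its exons, and for *Thrsp* the RefSeq start lies 180 bases inside the counted gene, so 230 bases of the window are exonic.

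RefSeq windows were matched for 26 of the 31 genes, and no window was matched for *Elovl3*, *Mcat*, *Scd1*, *Scd2* and *Fads1*. These genes had 31 windows, as some have several starts. CCAAT was found in 16 of the 31 windows (16 genes), against 37.4% of 32851 windows of all genes, and GGGCGG in 19 of the 31 (17 genes), against 35.7%. The E-box CACGTG was found in 3 of the 31 windows, those of *Elovl4*, *Elovl5* and *Slc25a1*, against 7.15% of all windows. TCACNCCAC, a core form of the sterol response element, was found in none of the 31 windows and in 1.24% of all. A share that low makes none in 31 windows unremarkable, and other forms of the element were not searched. TTCNNNGAA, the form bound by STAT5, was found in none of the 31 and in 8.3% of all. Genes with and without CCAAT were found at both ends of the order of log2 fold changes: *Acly* and *Fads3* both held CCAAT and GGGCGG, and *Olah* held none of the 5 motifs. The window of *Acaca*, which is not shown, held none of them either, and its RefSeq start lies far inside the counted gene.

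Mitochondria have their own fatty acid synthesis, a chain of separate enzymes that supplies lipoic acid rather than milk fat. *Mecr*, the reductase of its last step, had 39.3, 34.0 and 43.5 CPM in WT and 35.2, 27.3, 21.9 and 33.6 CPM in the KO-labelled libraries, a log2 fold change of −0.40 (SE 0.19, adjusted p = 0.257 by edgeR). *Mcat*, which loads malonyl units, had 20.7, 25.8 and 20.4 CPM in WT and 21.2, 19.9, 20.5 and 25.4 CPM in the KO-labelled libraries, a log2 fold change of −0.03 (SE 0.16, adjusted p = 0.927 by edgeR). *Oxsm*, the ketoacyl synthase, had 12.2 to 14.8 CPM and 12.1 to 15.5 CPM (log2 fold change 0.01). The groups of all 3 genes overlapped, none had an unadjusted p under 0.05, and the signs of *Mcat* and *Oxsm* turned under other scalings or with a library left out.

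Elongation adds 2 carbons per round to chains made in the cytosol or taken from food. *Elovl1*, which lengthens saturated and monounsaturated very long chains, differed most. It had 314, 140 and 243 CPM in WT and 95.9, 80.5, 71.4 and 99.3 CPM in the KO-labelled libraries, with no overlap, a log2 fold change of −1.42 (SE 0.26, adjusted p = 0.0692 by the quasi-likelihood test and 9.03e-05 by the exact test of edgeR). *Elovl5*, which lengthens polyunsaturated chains, had 341, 160 and 288 CPM in WT and 102, 204, 90.1 and 131 CPM in the KO-labelled libraries, where WT replicate 2 lay below KO replicate 2 (log2 fold change −1.0, SE 0.33, adjusted p = 0.142 by edgeR). *Elovl6*, which takes palmitate to stearate, had 154, 33.7 and 117 CPM in WT and 70.6, 66.6, 49.8 and 26.6 CPM in the KO-labelled libraries (log2 fold change −0.92, SE 0.48, adjusted p = 0.308 by edgeR), and without WT replicate 1 its log2 fold change was −0.49. That of *Elovl1* stayed between −1.68 and −1.14 with any single library left out.

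The enzymes that serve every elongase differed less. *Hsd17b12*, the ketoacyl reductase, had 125 to 201 CPM in WT and 87.5 to 127 CPM in the KO-labelled libraries (log2 fold change −0.64), and *Tecr*, the enoyl reductase, had 147 to 216 CPM and 113 to 158 CPM (log2 fold change −0.52). Their groups touched only through WT replicate 2. *Elovl7* had 27.5 to 33.6 CPM in WT and 26.4 to 36.0 CPM in the KO-labelled libraries (log2 fold change 0.14). *Elovl4*, with 0.736 to 1.43 CPM, and *Elovl3*, with at most 0.654 CPM, were close to the limit of detection, and their log2 fold changes of 0.25 (SE 0.35) and 0.05 (SE 0.98) were smaller than their errors.

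TDP-43 binds RNA at UG repeats, so each gene's longest transcript was searched for runs of at least 3 UG. Such a run was present in 23 of the 30 genes (76.7%) and in 71.5% of 15112 genes tested with a protein-coding transcript. Runs of at least 6 were present in 2 of the 30 (6.67%) and in 6.33% of all. Both lie in a 3′ UTR, in the last of 8 exons, and are shown with the run in capitals, the longer one for its first 30 bases only.
Elovl1, run of 6 UG at chr4:118105227-118105238, plus strand: cacugagauUGUGUGUGUGUGuaaaugagg
Elovl7, run of 20 UG at chr13:109073956-109073995, plus strand: UGUGUGUGUGUGUGUGUGUGUGUGUGUGUG
Of these genes *Elovl1* was lower in all KO-labelled libraries and *Elovl7* was not. *Acly* and *Olah*, among the genes with the largest differences, held no run of 3 or more UG in the transcript searched, and *Scd2* held a single run of 3. *Mcat*, *Oxsm*, *Mecr*, *Fads3* and *Acsl5* held none either. Other transcripts of a gene can hold runs that this one lacks, and they were not searched, nor were introns. For another transcript of *Olah*, the study's own search lists a stretch with 3 UG. The counts say nothing of binding in these glands.

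Desaturases place double bonds. *Scd1* and *Scd2* encode stearoyl-CoA desaturases, which make oleate and palmitoleate, and lie near each other on chromosome 19, with *Scd4* between them (NCBIM37, 44468941 to 44482199, minus strand, and 44368166 to 44381354, plus strand). *Scd2* had 977, 121 and 431 CPM in WT and 93.8, 45.6, 42.1 and 39.6 CPM in the KO-labelled libraries, with no overlap but a wide spread among the WT libraries. Its log2 fold change of −3.20 (SE 0.62, adjusted p = 0.0702 by the quasi-likelihood test and 4.29e-05 by the exact test of edgeR), or 9.22 times more in WT, was the largest of the 30. It was −3.67 without WT replicate 2, −2.32 without WT replicate 1 and −1.57 within lane 4.

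*Scd1* had 18647, 7214 and 11152 CPM in WT and 3863, 10309, 9291 and 5680 CPM in the KO-labelled libraries. KO replicates 2 and 3 lay above WT replicate 2, and the log2 fold change of −0.76 (SE 0.46, adjusted p = 0.376 by edgeR) became −1.03 without WT replicate 2, −0.33 without WT replicate 1 and 0.01 within lane 4. Of the runs of 50 bases in *Scd2* transcripts, 2.68% also occur in *Scd1* transcripts, and reads that map to more than 1 place were not counted.

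*Fads1*, *Fads2* and *Fads3* form a cluster on chromosome 19, from 10116038 to 10271360 on NCBIM37. *Fads1*, the delta-5 desaturase of polyunsaturated fatty acids, had 889, 395 and 710 CPM in WT and 303, 310, 232 and 311 CPM in the KO-labelled libraries, with no overlap (log2 fold change −1.20, SE 0.27, adjusted p = 0.0797 by edgeR). *Fads2*, the delta-6 desaturase, had 470, 185 and 309 CPM in WT and 157, 179, 114 and 192 CPM in the KO-labelled libraries, where WT replicate 2 lay below KO replicate 4 (log2 fold change −1.0, SE 0.30, adjusted p = 0.123 by edgeR). With single libraries left out, *Fads1* stayed between −1.47 and −0.94, and *Fads2* was −0.62 without WT replicate 1. *Fads3*, which acts on other substrates, among them sphingoid bases, had 33.1, 60.3 and 43.5 CPM in WT and 93.5, 69.6, 47.7 and 73.0 CPM in the KO-labelled libraries. It was the one gene of the 30 with a higher level at an unadjusted p under 0.05 (log2 fold change 0.64, SE 0.26, adjusted p = 0.207 by edgeR), and KO replicate 3 lay within the WT range.

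Activation joins a fatty acid to coenzyme A. *Acsl3*, a synthetase of the endoplasmic reticulum and lipid droplets, had 25.4, 23.8 and 24.4 CPM in WT and 14.9, 23.7, 17.0 and 19.2 CPM in the KO-labelled libraries, a log2 fold change of −0.39 (SE 0.18, adjusted p = 0.239 by edgeR). Its groups did not overlap, by a margin of less than 1 CPM. *Acsl4*, which prefers arachidonate, had 312, 391 and 234 CPM in WT and 171, 330, 268 and 261 CPM in the KO-labelled libraries (log2 fold change −0.28, SE 0.25, adjusted p = 0.57 by edgeR). *Acsl5* had 40.3 to 58.5 CPM and 42.8 to 52.4 CPM (log2 fold change −0.08). None of the 3 had an unadjusted p under 0.05, and *Acsl4* and *Acsl5* turned positive when libraries were scaled by their totals alone.

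The steps did not sit equally far from WT in every library. As the median over a step's genes of log2(CPM + 1) minus the gene's WT mean, chain building was at −1.71, −1.51, −1.96 and −2.19 in KO replicates 1 to 4, and WT replicate 2 was at −0.81. Acetyl-CoA and NADPH supply was lowest in KO replicate 1, at −1.56, and WT replicate 2, at −0.77, was nearer to KO replicate 4, at −0.96, than to the other WT libraries. In mitochondrial synthesis all 7 libraries lay between −0.15 and 0.02.

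**Figure D3:**
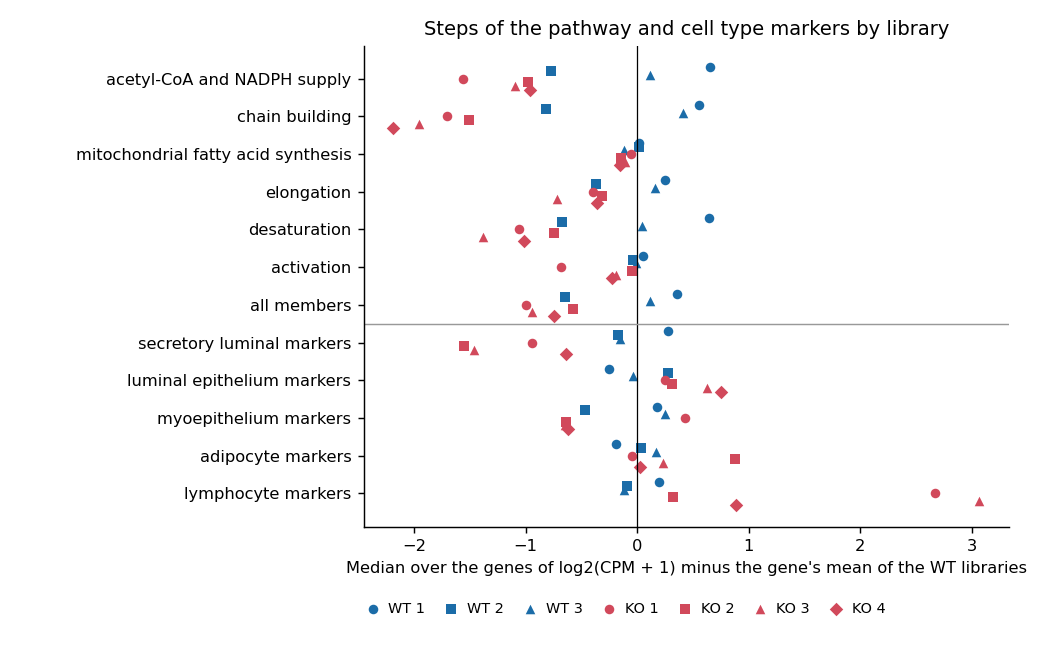
Median over the genes of each step, and of each list of cell type markers, of log2(CPM + 1) minus the gene's mean of the WT libraries, with 1 point for each library (blue, WT; red, KO-labelled). Chain building shows the widest gap between blue and red points among the steps, with WT replicate 2 between the groups, and lymphocyte markers lie far to the right in KO replicates 1 and 3.

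Markers of the gland's cell types were also followed, and their lists were not tested as sets. The 5 markers of secretory luminal cells, milk protein genes, were all lower in every KO-labelled library than in any WT library (median log2 fold change −1.10). Over all genes tested, 9.62% lay entirely below. Summed levels of the 5 were 227988 to 332178 CPM in WT and 80376 to 160077 CPM in the KO-labelled libraries. By quantitative PCR, at L1 among other stages, the study instead reports that several milk protein genes were unaffected by loss of *Tardbp*. The 5 markers of luminal epithelium as a whole (*Krt8*, *Krt18*, *Krt19*, *Epcam*, *Cdh1*) all had a positive log2 fold change (median 0.55), with sums of 1515 to 2253 CPM and 2217 to 2974 CPM. Of the 10 adipocyte markers 8 had a positive log2 fold change (median 0.36), with sums of 3637 to 5296 CPM in WT and 3929 to 7928 CPM in the KO-labelled libraries, and none was at 0, *Adipoq* and *Plin1* included. At an unadjusted quasi-likelihood p under 0.05, 2 of the 5 luminal epithelium and 1 of the 10 adipocyte markers were higher. Over all genes tested, 10.7% were higher, and 9331 of 17175 had a positive log2 fold change. In whole tissue, fewer cells of a type and less RNA per cell cannot be told apart.

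All 10 lymphocyte markers had a positive log2 fold change (median 2.56), and their summed level was 38.2 to 55.7 CPM in WT and 406, 65.4, 554 and 123 CPM in the KO-labelled libraries, in the order of their replicate numbers. The markers of myoepithelium had a median of −0.31, and none had an unadjusted quasi-likelihood p under 0.05. With KO replicates 1 and 3, the richest in lymphocyte markers, both left out, the median log2 fold change of the 30 genes was −0.72, with 15 entirely below WT (15.9% of all genes) and 4 called by the exact test (0.513% of all genes called lower). The part of the cell mixture in the difference of the fatty acid synthesis genes was not tested.

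Ratios of gene pairs within a library do not depend on the scaling between libraries. They were taken of counts per kb of exon for 8 pairs, with the 2-sided exact permutation test and Benjamini-Hochberg adjustment over the 8. The ratio of *Acss2* to *Acly* compares transcripts of enzymes that use acetate and citrate, not the synthesis of acetyl-CoA itself. It was 0.0179, 0.0207 and 0.0161 in WT and 0.0300, 0.0344, 0.0566 and 0.0406 in the KO-labelled libraries. Every KO-labelled library lay above every WT library. The difference was 1.11 on the log2 scale, exact permutation p = 0.0286 and 0.229 after adjustment, and it lay between 0.94 and 1.24 with any single library left out and at 1.21 within lane 4. The exons counted for *Acss2* span 10163 bases, of which 7.49% are shared with neighbouring genes, while its longest coding transcript has 2931 bases. Division by the larger length lowers its level per kb by the same factor in all libraries. Whether reads from neighbouring genes add to its count was not tested.

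The ratio of *Scd2* to *Scd1* was 0.0465, 0.0149 and 0.0343 in WT and 0.0215, 0.00393, 0.00402 and 0.00618 in the KO-labelled libraries. KO replicate 1 lay above WT replicate 2 and the other KO-labelled libraries below all WT libraries, a difference of −2.09 on the log2 scale (exact permutation p = 0.0857, 0.343 after adjustment). The ratio of *Olah* to *Fasn* compares transcripts for early release with those for chain growth. It was 0.854, 1.78 and 0.862 in WT and 0.587, 0.292, 0.321 and 1.15 in the KO-labelled libraries. The difference was −1.12 (exact permutation p = 0.171, 0.343 after adjustment), with KO replicate 4 inside the WT range. The ratio of *Acaca* to *Acacb* was 2.14 to 2.77 in WT and 1.5 to 6.11 in the KO-labelled libraries, a difference of 0.05 (exact permutation p = 0.943). For *Fads2* over *Fads1*, *Elovl6* over *Elovl1*, *Mecr* over *Fasn* and *Acsl4* over *Acsl3* the differences were 0.21, 0.60, 0.98 and 0.13, and the groups overlapped in each.

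**Figure D4:**
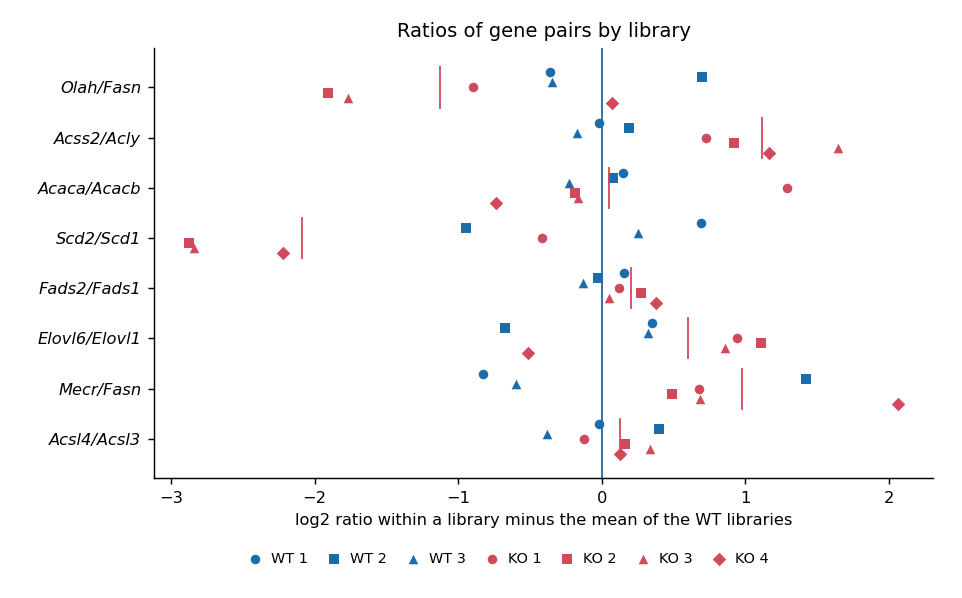
log2 ratio of 8 gene pairs within each library, per kb of exon, minus the mean of the WT libraries (blue points and line, WT; red points, KO-labelled libraries; red line, their mean). *Acss2*/*Acly* is the pair in which all 4 KO-labelled libraries lie above all 3 WT libraries, and in the other 7 pairs the groups overlap.

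Per kb of exon, *Scd1* had the highest level of the set in every library. It made up 42.5%, 41.0% and 33.7% of the set's summed CPM per kb in WT replicates 1 to 3 and 39.0%, 57.7%, 60.7% and 43.6% in KO replicates 1 to 4, with KO replicate 1 inside the WT range. By group mean *Thrsp* had the next highest level and *Fasn* the one after in both genotypes, with *Fasn* at 486 ± 314 CPM per kb (SD, n = 3) in WT and 155 ± 61.6 (SD, n = 4) in the KO-labelled libraries. Next in WT came *Olah* at 455 ± 203 and *Acly* at 411 ± 200 CPM per kb, which differ from *Fasn* and from each other by less than their SD. In the KO-labelled libraries these genes were at 79.3 ± 38.0 and 76.9 ± 18.2 CPM per kb, ranks 8 and 9, and *Scd2* went from rank 12 to rank 22.

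*Acly* made up 5.31% to 6.59% of the set in WT and 1.93% to 3.29% in the KO-labelled libraries, without overlap. The share of *Olah* was 6.11% to 8.15% in WT and 1.36% to 6.22% in the KO-labelled libraries, where KO replicate 1 reached the WT range. The summed level of the set was 9069, 3636 and 6837 CPM per kb in WT and 2050, 3695, 3167 and 2692 CPM per kb in the KO-labelled libraries, so KO replicate 2 lay just above WT replicate 2.

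**Figure D5:**
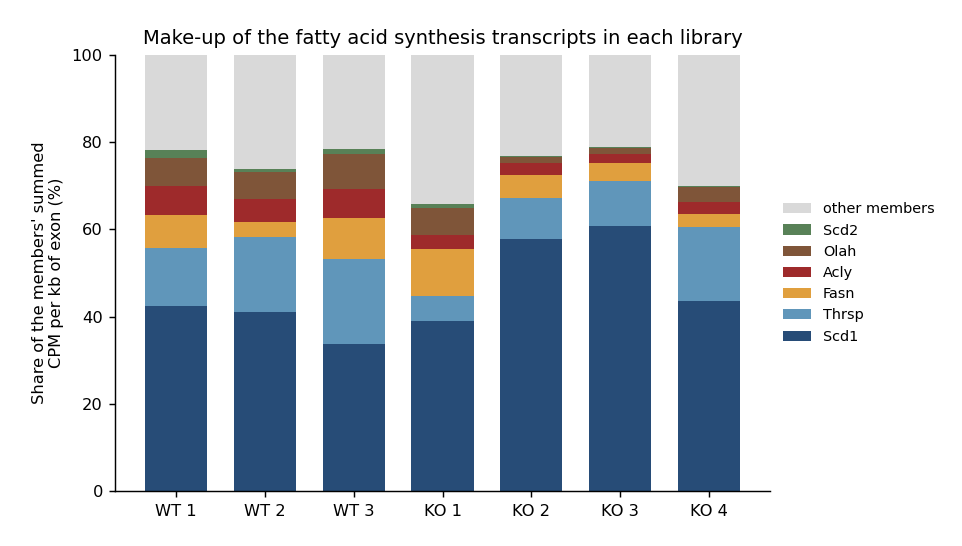
Share of the set's summed CPM per kb of exon held by *Scd1*, *Thrsp*, *Fasn*, *Acly*, *Olah* and *Scd2* in each library, with the other members in grey, as bars that add up to the whole. *Scd1* holds 33.7% to 42.5% in WT and 39.0% to 60.7% in the KO-labelled libraries, and the share of *Acly* is smaller in each KO-labelled library than in any WT library.

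Partners of these enzymes were followed in a list of 35 further genes, of which 34 passed the filter. Their median log2 fold change was −0.30, with 23 negative and 11 positive values. By the unadjusted quasi-likelihood p under 0.05, 13 of the 34 were lower and 2 higher, where 10.7% of all genes tested were lower and 10.7% higher. edgeR's exact test called 4 of the 34, all lower, where it called 1.44% of all genes lower and 1.04% higher. The 4 were *Mthfd1* (log2 fold change −1.22), a folate enzyme that yields NADPH, *Pcx* (−1.20), pyruvate carboxylase, which refills oxaloacetate for citrate export, *Prkaa2* (−1.14), a catalytic subunit of the kinase AMPK that inhibits acetyl-CoA carboxylase, and *Cyb5b* (−1.39), the outer mitochondrial cytochrome b5. The groups of *Cyb5b* overlapped, with WT replicate 2 at 108 CPM and KO replicate 1 at 118 CPM. Those of *Mthfd1*, *Pcx* and *Prkaa2* did not overlap. *Pgd* (−0.82) and *G6pdx* (−0.72), the NADPH-yielding enzymes of the pentose phosphate pathway, *Mpc2* (−0.77), of the mitochondrial pyruvate carrier, and *Acsl1* (−0.98) were lower at an unadjusted p under 0.05 and were not called by the exact test. *Prkaa1* (0.40), the other catalytic subunit of AMPK, and *Acsbg1* (1.12) were the 2 that were higher.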

How the data were processed

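RNA of mammary glands at L1 was sequenced from 3 WT and 4 *Tardbp* KO mice, grouped by the genotype in the labels. The values deposited by the authors are whole-number counts per gene without normalization. Per the file headers, reads were counted on the exons of 37310 genes of the mouse annotation with featureCounts 1.4.6-p5 and no option for strand, pairs or multimapping reads, so mates were counted separately, antisense reads were included, and reads with several places or over more than 1 gene were left out. The submitters' processing notes name STAR 2.5.2a and mm9, the same assembly as NCBIM37, and the study's methods name another STAR version. The header's command line names 1 further library, not analysed here.

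After the study's methods, the 37 mitochondrial and 580 ribosomal genes were left out, as was any gene that did not reach 5 counts in 4 or more libraries. The comparison of the groups used TMM and the quasi-likelihood test of edgeR 4.0.16 (R 4.3.3), with Benjamini-Hochberg adjustment over all 17175 genes. A gene was called if its log2 fold change was above 1 in size and its adjusted p below 0.01. The study names edgeR and these limits but no test. edgeR's exact test, DESeq2 1.42.0, other scalings, other filters, a replicate block, each library left out and lane 4 alone were tried as alternatives, and the scripts were tested on simulated data. Single values were compared with a 2-sided exact permutation test over 35 splits of log2(CPM + 1), with 1 as the pseudocount, or of log2 ratios.

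The members and lists were chosen with earlier results of these data known. Full values are given for the 2 genes of each step with the largest absolute log2 fold change among those with a mean of at least 10 CPM, for the genes of the ratio pairs, and for *Thrsp* and *Fads3*, added after their values were seen. Promoters were taken from RefSeq and UG runs from GENCODE vM1 transcripts. Further tools were Python 3.11.15 with scipy 1.17.1, pandas 2.3.3 and numpy 2.4.6 for tables and matplotlib 3.10.9 for figures. Totals of 36007737 counts or more leave counting error small beside the spread between mice for all but the genes near 1 CPM.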

Additional observations from a re-analysis of the deposited data

Results flagged for a closer look

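In 5 of 38 sets of 4 KO-labelled values tested, 1 library stood far from the others, by the ratio of its gap to the whole range (Dixon's test, which chance passes in about 1 of 20 sets). For *Elovl7* the ratio was 0.918, with KO replicate 2 at 26.4 CPM and the others at 35.1 to 36.0 CPM. For *Scd2* it was 0.837, with KO replicate 1 at 93.8 CPM and the others at 39.6 to 45.6 CPM. For *Fads1* it was 0.905, with KO replicate 3 at 232 CPM and the others at 303 to 311 CPM. For the ratio of *Elovl6* to *Elovl1* it was 0.847, with KO replicate 4 at 0.123 and the others at 0.319 to 0.379. For the ratio of *Mecr* to *Fasn* it was 0.876, with KO replicate 4 at 0.140 and the others at 0.0470 to 0.0537. KO replicate 4 had the lowest KO-labelled levels of both *Elovl6* and *Fasn*.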

How the results depend on the processing

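The direction of the median, −0.96, held under all alternatives run. It was −0.55 when libraries were scaled by their totals alone, where the median of all genes rose to 0.42 from 0.05; relative to all genes it was −0.97 there and −1.01 with TMM. It lay between −1.26 and −0.57 with single libraries left out and was −0.31 within lane 4. The number of members entirely below WT lay between 13 and 22 with single libraries left out. No member was called by the quasi-likelihood test under any scaling, filter, block or left-out library, while edgeR's exact test called 11 (426 of all genes) and DESeq2 called 11 (572 of all genes); the cause was not tested. At an adjusted p under 0.05, which no member reached with all libraries and the main filter, 6 members passed without a filter on low counts, 5 with the replicate block and 15 without WT replicate 2.

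The counts without single libraries were chosen after seeing the data. The members lower at an unadjusted p under 0.05 numbered 18 with all libraries (10.7% of all genes), 11 without WT replicate 1 (5.89%), 20 without WT replicate 2 (11.8%) and 12 with KO replicates 1 and 3 left out together (7.19%). In these 3 settings the exact test called 6, 16 and 4 members lower (0.536%, 2.51% and 0.513% of all genes) and DESeq2 6, 16 and 6 (0.6%, 3.07% and 0.999%).

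Signs turned for genes near 0. *Oxsm*, 0.01 with TMM, was −0.00294 with DESeq2's size factors, −0.00167 in DESeq2 and between −0.0577 and 0.0819 with single libraries left out. Under totals alone *Mcat* was 0.32, *Acsl4* 0.10 and *Acsl5* 0.31. With single libraries left out *Mcat* lay between −0.135 and 0.0856, *Acsl5* between −0.205 and 0.0576 and *Elovl3* between −0.39 and 1.06.

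With the replicate number as a block the median was −0.84, no member was called, and *Elovl3* was −0.24. The deviations of same-numbered libraries had correlations of 0.44, 0.07 and −0.08 for numbers 1, 2 and 3, and not every library correlated best with its own number. Such correlations can neither show nor exclude a shared litter or day. Of the 865 values recomputed, 783 were kept. A tested value was kept if its direction and side of the threshold held. Where no test applied, a value was kept within 1 SD of the libraries or within 1.5 times the count. As the main test called no member, this rule took no account of a changed size in the fold changes tested. Lane 4 alone, the only lane with both genotypes, kept 18 values and moved 28, of 44 moved in all settings. Depth limited *Elovl2*, *Elovl3* and *Elovl4*, at about 1 CPM or less.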
